A study of Piaractus mesopotamicus with 9 samples.

Results

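The miR-26 family of microRNAs was examined in pacu (Piaractus mesopotamicus) myotubes, the elongated muscle cells formed by fusion of cultured myoblasts. An entry of the mature miRNA reference was taken as a member when its name, without the species prefix, began with miR-26. Of the 3579 reference entries, 37 were miR-26 entries, and 29 of them reached a mean of 10 counts and were tested among 1769 entries. These 29 held 27 distinct count profiles of 953, since dre-miR-26a-3p, ssa-miR-26a-5-3p and ssa-miR-26d-3p had the same counts in all libraries. The reference covered 13 teleost species, each with at least 1 miR-26 entry, and the prefix of a name gives the species (dre- zebrafish, ssa- Atlantic salmon, ola- medaka, oni- Nile tilapia, gmo- Atlantic cod, fru- fugu).

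Small RNA libraries were prepared from cells of the fast muscle of juvenile pacu, with the fish of a culture pooled, after 8 days of culture and a period without amino acids. In the AA group, amino acids were returned for 24 h after 12 h of deprivation, as DMEM, a medium that also differed from the deprivation medium in its base. In the IGF1 group, recombinant sea bream insulin-like growth factor 1 was given in amino acid-free medium for 24 h after the same 12 h. The CTR group was kept without amino acids for 36 h. The sample characteristics give 36 h for CTR and 12 h for AA and IGF1. These values equal the hours of deprivation and not the 24 h of supplement, so the labels leave the duration of treatment unclear. Each group had 3 libraries. The paper states that its results came from 3 independent cell cultures, but the labels do not say which culture gave which library. The p-values therefore measure only the spread between these libraries, part of which may be technical. The comparisons address how miRNAs of deprived muscle cells responded to the return of nutrients or of a growth-promoting hormone.

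Counts over the zebrafish entries summed to 7627252 to 12908097 per library. The skeletal muscle miRNAs (miR-206, miR-133, miR-1 and miR-499) took 0.194 to 0.276% of them in AA, 0.0757 to 0.0851% in IGF1 and 0.0439 to 0.0683% in CTR. All 12 of their zebrafish entries had counts, 9 of them in every library. The fibroblast and mesenchymal list (miR-143, miR-145, miR-199 and miR-214) took more, with 6.18 to 7.97% in AA, 5.95 to 7.77% in IGF1 and 6.26 to 6.66% in CTR. Most of this was miR-199, with 5.54 to 7.27% in AA, 5.23 to 7.14% in IGF1 and 5.56 to 6.17% in CTR. Over all groups, miR-143 took 0.432 to 0.679%, miR-214 at most 0.0671% and miR-145 at most 0.0101%. The endothelial miR-126 took at most 0.0242% of the zebrafish counts. The blood and epithelial lists were near 0 in all groups, with 0.000396 to 0.00138% and 0.000489 to 0.000759%. In bulk libraries, fewer cells of a type and less miRNA per cell cannot be told apart.

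miR-26a and miR-26b are conserved vertebrate miRNAs whose genes lie in introns of the CTDSP small phosphatase genes. The 5p strand of the hairpin is the usual guide strand, which is loaded into Argonaute to repress messenger RNAs, and the 5p strands of miR-26a and miR-26b share a seed and therefore predicted targets. The 3p strand is the opposite arm, which is usually degraded. In mouse myoblasts, miR-26a promotes differentiation through repression of Ezh2, a histone methyltransferase that holds muscle genes silent, and of the TGF-beta and BMP signal mediators Smad1 and Smad4.

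The 27 profiles came down to 8 forms when entries whose counts differed by less than 2% or 2 counts in every library were joined. The form of dre-miR-26a-5p held 12 entries from 12 species, among them fru-miR-26, tni-miR-26 and gmo-miR-26a-5p, which differed by at most 44 counts in any library. The form of dre-miR-26b held 9 entries from 9 species, which differed by at most 40 counts. Such entries counted essentially the same reads and are not independent measurements. The third form with several entries was dre-miR-26a-3p with its 2 identical salmon entries. The remaining 5 forms were each 1 entry, namely dre-miR-26a-2-3p, ola-miR-26, oni-miR-26d, ssa-miR-26a-4-3p and ssa-miR-26d-5p. The counts do not show which entry matches the pacu miRNA.

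The family was dominated by miR-26a-5p. By mean raw count, dre-miR-26a-5p was the 9th of 373 zebrafish entries, dre-miR-26b the 29th, dre-miR-26a-3p the 110th and dre-miR-26a-2-3p the 182nd. The 4 zebrafish miR-26 entries together took 1.74% ± 0.181 of the zebrafish counts in AA, 1.52% ± 0.172 in IGF1 and 1.66% ± 0.114 in CTR (SD, n = 3 each). Within the family, dre-miR-26a-5p made up 88.3% ± 0.470 in AA, 89.6% ± 0.543 in IGF1 and 88.4% ± 0.526 in CTR (SD, n = 3 each). In medaka the only miR-26 entry, ola-miR-26, was the 19th of 146 entries, with a mean of 7756 counts against 155774 for dre-miR-26a-5p.

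**Figure D1:**
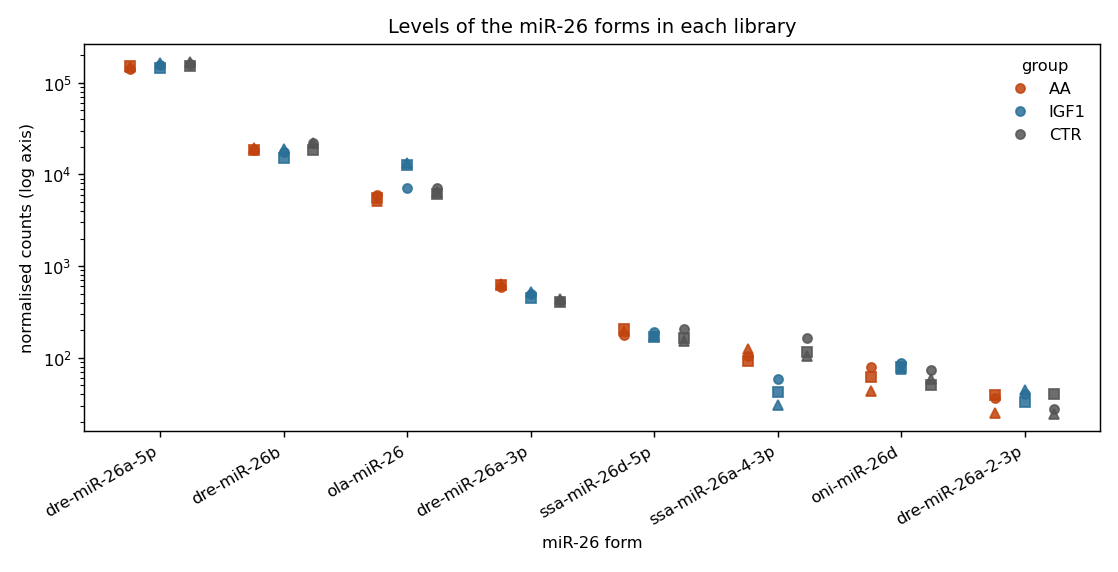
Normalised counts (log axis) of the 8 miR-26 forms, each named by its leading entry, in the 3 AA, 3 IGF1 and 3 CTR libraries. Each point is a library, and circles, squares and triangles mark replicates 1, 2 and 3. The forms span levels from 24.5 normalised counts for dre-miR-26a-2-3p to 170325 for dre-miR-26a-5p, and most groups lie close together at each form.

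In the comparisons between groups, edgeR called 0 to 2 of the 27 miR-26 profiles, each called one a form of 1 entry. Calls required an edgeR adjusted p no greater than 0.05 and a log2 fold change of 0.55 or more in either direction, that is 1.46-fold. Between AA and CTR, edgeR called 0 of the 27 miR-26 profiles, beside 2.31% of all 953 profiles, and DESeq2 called 0, beside 2.83%. At an unadjusted p of at most 0.05 there was 1 miR-26 profile, beside 6.3% of all profiles, and by the adjusted p alone there was also 1, dre-miR-26a-3p, beside 2.41%. Between IGF1 and CTR, edgeR called 1 miR-26 profile, beside 0.21% of all profiles. This was ssa-miR-26a-4-3p, lower in IGF1, the direction in which 0.105% of all profiles were called. DESeq2 called 2, beside 1.15%. Between AA and IGF1, edgeR called 2 miR-26 profiles, beside 2.1% of all profiles, and DESeq2 called 2, beside 2.94%. ssa-miR-26a-4-3p was higher in AA, as were 1.89% of all profiles, and ola-miR-26 was lower in AA, as were 0.21%. At an unadjusted p of at most 0.05 there were 11 miR-26 profiles between IGF1 and CTR, beside 7.66% of all profiles, of which 9 were the near-identical entries of dre-miR-26b. Between AA and IGF1 there were 3, beside 9.55%. The medians over the 27 profiles were -0.13 for AA against CTR, -0.07 for IGF1 against CTR and -0.05 for AA against IGF1 on the log2 scale. The corresponding medians over all profiles were -0.04, 0.02 and -0.06. Over the 8 forms, the medians were -0.05, 0.10 and 0.04.

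Groups did not overlap in 2 of the 27 profiles between AA and CTR, in 3 between IGF1 and CTR and in 3 between AA and IGF1. Over all profiles the shares were 11.9%, 10.8% and 12.2%. The 27 profiles include 12 near-identical entries of dre-miR-26a-5p and 9 of dre-miR-26b, so their counts cannot be set directly against these shares. Each profile without overlap was a separate form. Among the 8 forms, AA lay above CTR in 1 and below it in 1. IGF1 lay above CTR in 2 and below it in 1, and AA above IGF1 in 2 and below it in 1. The share over the forms of all miRNAs was not computed. The profiles without overlap were dre-miR-26a-3p in all 3 comparisons, ola-miR-26 between AA and CTR and between AA and IGF1, ssa-miR-26a-4-3p between IGF1 and CTR and between AA and IGF1, and oni-miR-26d between IGF1 and CTR.

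**Figure D2:**
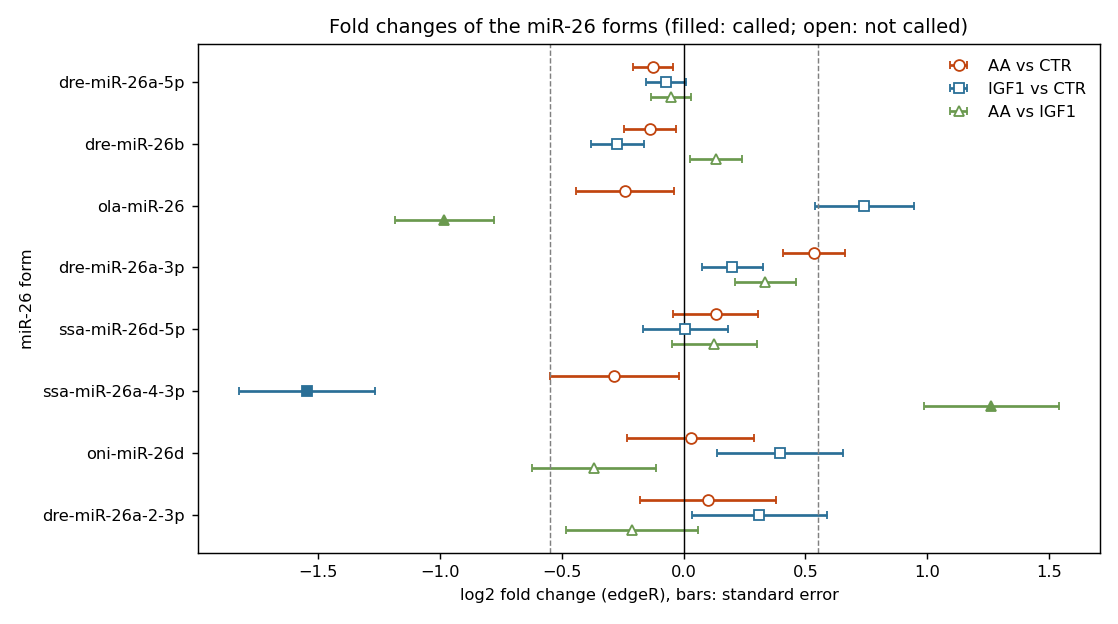
Log2 fold change (edgeR) of each miR-26 form in AA vs CTR (circles), IGF1 vs CTR (squares) and AA vs IGF1 (triangles), with bars for the standard error and dashed lines at ± 0.55. Filled symbols are called, and these are ssa-miR-26a-4-3p at -1.55 in IGF1 vs CTR and 1.26 in AA vs IGF1, and ola-miR-26 at -0.98 in AA vs IGF1.

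The abundant guide strand differed little between groups. dre-miR-26a-5p had 141086, 153774 and 148222 normalised counts in AA, 155025, 143832 and 162807 in IGF1, and 160513, 151676 and 170325 in CTR. The groups overlapped in every comparison. The log2 fold change was -0.13 (SE 0.08, edgeR adjusted p = 0.775) for AA against CTR, although it was 0.07 without composition factors. It was -0.07 (SE 0.08, edgeR adjusted p = 0.953) for IGF1 against CTR. For AA against IGF1 it was -0.05 (SE 0.08, edgeR adjusted p = 0.787), and 0.17 without composition factors.

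dre-miR-26b, which carries the same seed, had 18567, 18628 and 19449 normalised counts in AA, 17723, 15064 and 19142 in IGF1, and 21808, 18542 and 21923 in CTR. CTR replicate 2 lay below all AA libraries and the other CTR libraries, and within the IGF1 range. The log2 fold change was -0.14 (SE 0.11, edgeR adjusted p = 0.775) for AA against CTR, and 0.06 without composition factors. For IGF1 against CTR it was -0.27 (SE 0.11, edgeR adjusted p = 0.571). IGF1 was lower than CTR at each of the 3 replicate numbers, and with the replicate number as a block the edgeR adjusted p was 0.0534 over all entries and 0.0406 over distinct profiles, where the log2 fold change of -0.29 was smaller than the fold minimum. For AA against IGF1 the log2 fold change was 0.13 (SE 0.11, edgeR adjusted p = 0.632). None of these was called.

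Within a library, the ratio of dre-miR-26a-5p to dre-miR-26b does not depend on scaling. It was 7.60, 8.26 and 7.62 in AA, 8.75, 9.55 and 8.51 in IGF1, and 7.36, 8.18 and 7.77 in CTR. All 3 IGF1 libraries lay above all AA and CTR libraries, by a log2 difference of 0.20 to CTR and with AA lower than IGF1 by -0.19 on the log2 scale. Each difference had an exact permutation p of 0.1 (two-sided, n = 3 each), the smallest that 3 against 3 libraries allow. AA and CTR overlapped, with a log2 difference of 0.01 (exact permutation p = 0.9, n = 3 each). In all, 21 such ratio comparisons were made, and a p of 0.1 became 0.162 after Benjamini-Hochberg adjustment, so no ratio passed the threshold.

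The 3p entry dre-miR-26a-3p, with the same counts as ssa-miR-26a-5-3p and ssa-miR-26d-3p, was more abundant in AA. It had 586, 619 and 632 normalised counts in AA, 494, 449 and 520 in IGF1, and 421, 407 and 438 in CTR. The AA libraries lay above all IGF1 libraries, and these above all CTR libraries. The ratio of the means was 1.45 for AA to CTR, 1.16 for IGF1 to CTR and 1.26 for AA to IGF1.

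For AA against CTR the log2 fold change of dre-miR-26a-3p was 0.54 (SE 0.13) with an edgeR adjusted p of 0.0331, so it passed the p threshold and missed the fold minimum of 0.55 by a small margin. The same held for DESeq2 (log2 fold change 0.54, DESeq2 adjusted p = 0.000215). It also held with the replicate block (log2 fold change 0.53, edgeR adjusted p = 0.00594). The entry was called over distinct profiles (log2 fold change 0.55, edgeR adjusted p = 0.0362), without AA replicate 1 (log2 fold change 0.60, edgeR adjusted p = 0.0448), and without composition factors (log2 fold change 0.73, edgeR adjusted p = 0.0331). In the other 8 fits that left out 1 library the adjusted p was above 0.05, up to 0.177 without CTR replicate 2. It was also above 0.05 without the low-count filter (edgeR adjusted p = 0.0938) and with only the groups compared (0.0883). For IGF1 against CTR the log2 fold change was 0.20 (SE 0.13, edgeR adjusted p = 0.953), and for AA against IGF1 0.34 (SE 0.13, edgeR adjusted p = 0.254).

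The entry dre-miR-26a-3p was therefore set against dre-miR-26a-5p within each library, a ratio added after the levels were seen. Its counts are also those of ssa-miR-26d-3p, and the 5p form joins 12 entries. The ratio therefore cannot be assigned to the arms of 1 hairpin. There were 0.415, 0.402 and 0.426 reads of dre-miR-26a-3p per 100 reads of dre-miR-26a-5p in AA, 0.318, 0.312 and 0.319 in IGF1, and 0.262, 0.268 and 0.257 in CTR. The spread within each group was far smaller than the gaps between groups. It rests on 3 libraries per group and on 304 to 797 raw counts of dre-miR-26a-3p, whose counting error was not estimated. The log2 difference was 0.66 (SE 0.03) between AA and CTR, 0.27 (SE 0.02) between IGF1 and CTR, and 0.39 (SE 0.03) between AA and IGF1. Each had an exact permutation p of 0.1 (two-sided, n = 3 each), the smallest possible. The skeletal muscle list moved in the same order, with the largest share of the zebrafish counts in AA and the smallest in CTR, and its part in this ratio was not tested. Between IGF1 and CTR, miR-206 was the member without overlap, with 0.0476 to 0.0513% in IGF1 and 0.0188 to 0.0323% in CTR, while miR-1, miR-133 and miR-499 overlapped.

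**Figure D3:**
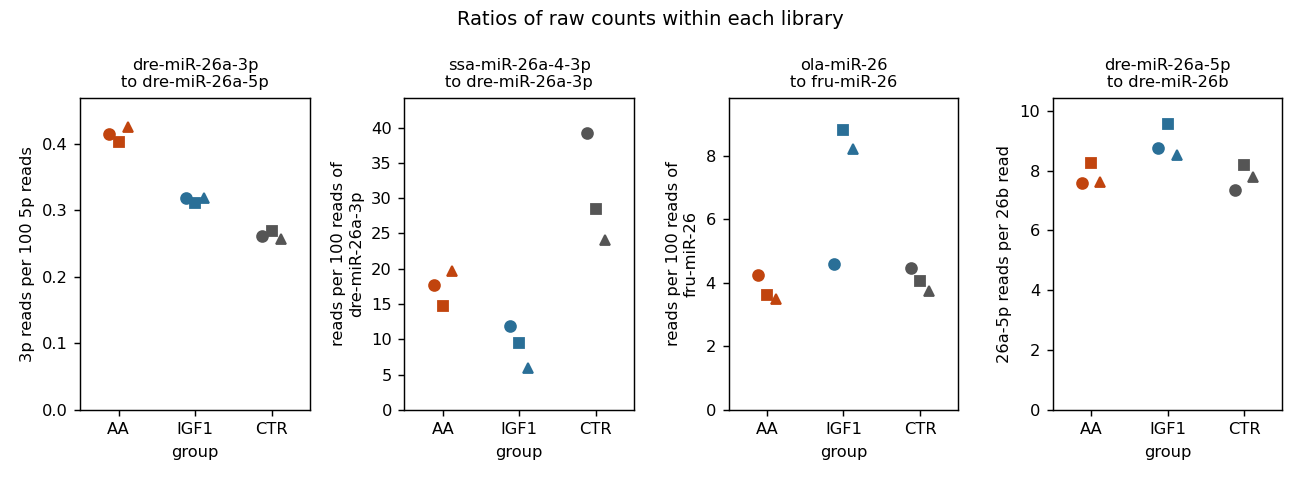
Ratios of raw counts within each library for dre-miR-26a-3p per 100 dre-miR-26a-5p reads, ssa-miR-26a-4-3p per 100 dre-miR-26a-3p reads, ola-miR-26 per 100 fru-miR-26 reads, and dre-miR-26a-5p per dre-miR-26b read. Each point is an AA, IGF1 or CTR library, with circles, squares and triangles for replicates 1, 2 and 3. The ratio in the first panel lies at 0.402 to 0.426 in AA, 0.312 to 0.319 in IGF1 and 0.257 to 0.268 in CTR.

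The salmon entry ssa-miR-26a-4-3p, by its name the 3p arm of another salmon miR-26a hairpin, was lowest in IGF1. It had 104, 91.0 and 125 normalised counts in AA, 58.6, 42.3 and 30.6 in IGF1, and 165, 116 and 105 in CTR. The 3 IGF1 libraries lay below all other libraries, while AA and CTR overlapped. These values rest on raw counts of 141, 85 and 115 in AA, 75, 42 and 26 in IGF1, and 172, 126 and 73 in CTR.

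The mean of ssa-miR-26a-4-3p in IGF1 was 0.340 times that in CTR, with a log2 fold change of -1.55 (SE 0.28, edgeR adjusted p = 0.0460). The mean in AA was 2.43 times that in IGF1, with a log2 fold change of 1.26 (SE 0.28, edgeR adjusted p = 0.0294). No difference was called between AA and CTR (log2 fold change -0.28, SE 0.26, edgeR adjusted p = 0.820).

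Both calls were lost in some fits that left out 1 library. The call of ssa-miR-26a-4-3p between IGF1 and CTR was kept without AA replicate 1 or CTR replicate 3. It was lost without any of the other 7 libraries, with edgeR adjusted p of 0.1005 and 0.0834 without AA replicates 2 and 3, and 0.157 and 0.198 without CTR replicates 1 and 2. Without IGF1 replicates 1, 2 and 3 the values were 0.0576, 0.203 and 0.142. Between AA and IGF1 the call was lost without AA replicate 3 (edgeR adjusted p = 0.146), CTR replicate 2 (0.0521), IGF1 replicate 2 (0.124) or IGF1 replicate 3 (0.111). Across these 9 fits the log2 fold change stayed between -1.82 and -1.32 for IGF1 against CTR and between 1.09 and 1.54 for AA against IGF1. With all 9 libraries, the IGF1 against CTR call was lost over distinct profiles (edgeR adjusted p = 0.0778) and with near-identical entries collapsed (0.0590). RLE factors (edgeR adjusted p = 0.0592), upper-quartile factors (0.180) and a mean of at least 50 counts (0.0531) lost it too. DESeq2 (DESeq2 adjusted p = 0.000289) and the replicate block (edgeR adjusted p = 0.00177) kept it.

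ssa-miR-26a-4-3p was also set against the more abundant 3p entry within each library. It had 17.7, 14.7 and 19.7 reads per 100 reads of dre-miR-26a-3p in AA, 11.9, 9.42 and 5.90 in IGF1, and 39.3, 28.5 and 24.0 in CTR. The groups did not overlap, with IGF1 lowest and CTR highest. The log2 difference was -0.80 (SE 0.24) between AA and CTR, -1.77 (SE 0.36) between IGF1 and CTR and 0.98 (SE 0.32) between AA and IGF1. Each had an exact permutation p of 0.1 (two-sided, n = 3 each), the smallest possible, so this test could not pass the threshold. Between IGF1 and CTR the 2 entries went in opposite directions, since dre-miR-26a-3p was higher in IGF1 than in CTR in every library. That rise was not called (log2 fold change 0.20, edgeR adjusted p = 0.953). Between AA and IGF1, both entries were higher in AA.

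**Figure D4:**
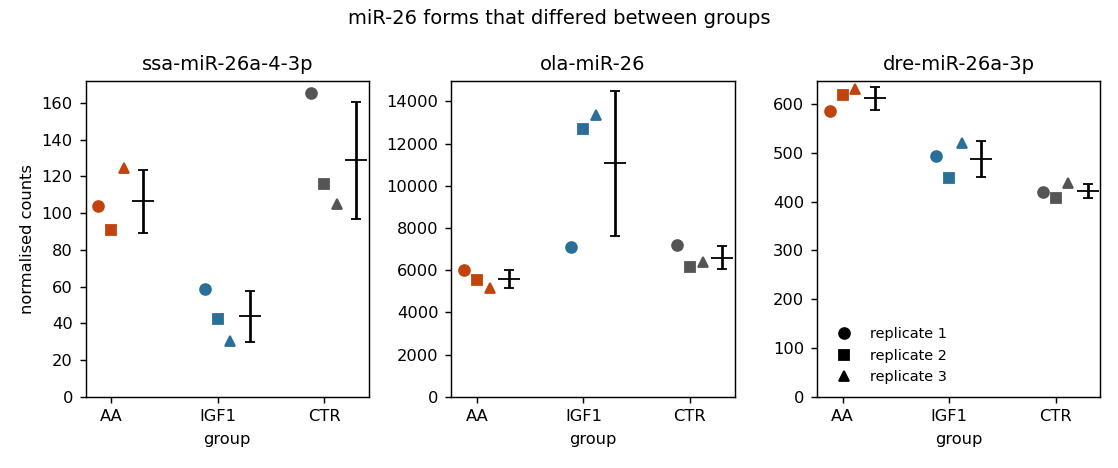
Normalised counts of ssa-miR-26a-4-3p, ola-miR-26 and dre-miR-26a-3p in the 3 AA, 3 IGF1 and 3 CTR libraries (circles, squares and triangles for replicates 1, 2 and 3), with the mean and SD of each group beside the points. ssa-miR-26a-4-3p is lowest in IGF1 (30.6 to 58.6), ola-miR-26 is high in IGF1 replicates 2 and 3 (12702 and 13371), and dre-miR-26a-3p is highest in AA (586 to 632).

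The medaka entry ola-miR-26 was lower in AA than in IGF1. It had 6003, 5558 and 5152 normalised counts in AA, 7118, 12702 and 13371 in IGF1, and 7194, 6161 and 6384 in CTR. IGF1 replicates 2 and 3 stood far above all other libraries, whereas IGF1 replicate 1 lay within the CTR range. The AA libraries lay below all CTR libraries, with a ratio of the means of 0.847.

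For AA against IGF1, the log2 fold change of ola-miR-26 was -0.98 (SE 0.20, edgeR adjusted p = 0.0183). The call was lost without AA replicate 2 (edgeR adjusted p = 0.0834), AA replicate 3 (0.108), IGF1 replicate 2 (0.0933) or IGF1 replicate 3 (0.106). It was also lost without composition factors (log2 fold change -0.71, edgeR adjusted p = 0.0665) and with only the groups compared (edgeR adjusted p = 0.0509). For IGF1 against CTR, the log2 fold change was 0.74 (SE 0.20, edgeR adjusted p = 0.172), which was not called. It was called without IGF1 replicate 1 (log2 fold change 0.98, edgeR adjusted p = 0.0105) and by DESeq2 (log2 fold change 0.75, DESeq2 adjusted p = 0.0275). For AA against CTR, the log2 fold change was -0.24 (SE 0.20, edgeR adjusted p = 0.790).

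Set against fru-miR-26 of the abundant form, which carries the same name without letter or arm, ola-miR-26 had 4.25, 3.61 and 3.48 reads per 100 in AA, 4.59, 8.83 and 8.21 in IGF1, and 4.48, 4.06 and 3.75 in CTR. Only IGF1 replicates 2 and 3 were clearly higher. The log2 difference was 0.76 between IGF1 and CTR and -0.88 between AA and IGF1 (exact permutation p = 0.1 each, two-sided, n = 3 each), and -0.12 between AA and CTR (exact permutation p = 0.4). A joint rise of IGF1 replicates 2 and 3 was thus present in this entry and not in the abundant form. Of fru-miR-26, IGF1 replicate 2 held the fewest normalised counts of its group (143808) and replicate 3 the most (162821).

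The miR-26d entries ssa-miR-26d-5p and oni-miR-26d and the 3p entry dre-miR-26a-2-3p were rare and none was called. Another miR-26d entry, ssa-miR-26d-3p, had the counts of dre-miR-26a-3p and is described with it. ssa-miR-26d-5p had 178, 203 and 196 normalised counts in AA, 189, 168 and 173 in IGF1, and 207, 164 and 153 in CTR. Its log2 fold changes were 0.13 for AA against CTR, 0.01 for IGF1 against CTR and 0.13 for AA against IGF1 (SE 0.17 each, lowest edgeR adjusted p = 0.787). Its normalised counts overlapped between the groups in every comparison.

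oni-miR-26d had 80.1, 61.0 and 43.3 normalised counts in AA, 87.5, 78.5 and 75.4 in IGF1, and 73.0, 50.7 and 59.0 in CTR. The IGF1 libraries lay above all CTR libraries and overlapped with AA. The log2 fold change was 0.39 (SE 0.26, edgeR adjusted p = 0.953) for IGF1 against CTR, 0.03 (SE 0.26, edgeR adjusted p = 0.980) for AA against CTR and -0.37 (SE 0.25, edgeR adjusted p = 0.570) for AA against IGF1. dre-miR-26a-2-3p stayed between 24.5 and 44.8 normalised counts in all libraries, with means of 33.5 ± 7.66 in AA, 39.3 ± 5.82 in IGF1 and 31.0 ± 8.47 in CTR (SD, n = 3 each). Its log2 fold changes of 0.10, 0.31 and -0.21 for AA against CTR, IGF1 against CTR and AA against IGF1 were close to or below their standard errors (0.28, 0.28 and 0.27). As a ratio within a library, oni-miR-26d to gmo-miR-26a-5p did not overlap between IGF1 and CTR (log2 difference 0.48). Between AA and IGF1, dre-miR-26a-2-3p to dre-miR-26a-3p (-0.57) and ssa-miR-26d-5p to gmo-miR-26a-5p (0.18) did not overlap. Each had an exact permutation p of 0.1 (two-sided, n = 3 each), the smallest possible. In the other comparisons of these ratios the groups overlapped.

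The other 8 miR-26 entries were below the minimum. Of these, 5 had no count in any library (gmo-miR-26a-2-3p, gmo-miR-26a-3p, oni-miR-26c, ssa-miR-26a-6-3p and ssa-miR-26b-3p). gmo-miR-26a-4-3p had 3 counts over all libraries, ssa-miR-26a-3-3p had 17 and ssa-miR-26a-3p had 1.

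Other miRNAs reported to repress EZH2 in mammals (miR-101, miR-124, miR-138 and miR-214) had 33 profiles, of which edgeR and DESeq2 each called 0 in all 3 comparisons. At an unadjusted p of at most 0.05 there were 0 of these profiles for AA against CTR, 7 for IGF1 against CTR and 0 for AA against IGF1, beside 6.3%, 7.66% and 9.55% of all profiles. Their median log2 fold changes were -0.0061, -0.08 and 0.28, beside -0.04, 0.02 and -0.06 over all profiles. For AA against IGF1, the 22 miR-101 profiles had a median of 0.36, the 3 miR-124 profiles -0.30 and the 7 miR-214 profiles -0.017. For IGF1 against CTR, these medians were -0.21, 0.24 and -0.012. The miR-138 profile was at 0.11 for AA against IGF1 and at -0.11 for IGF1 against CTR. Near-identical entries were joined for all miRNAs, but the forms among the 22 miR-101 profiles were not counted. Counts of the 33 profiles therefore cannot be set directly against the shares over all profiles.

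The profiles most like each variant across the 9 libraries were found by Pearson correlation of log2 normalised counts, given as a description without a test, since the libraries share their depth and reads. ola-miR-26 was closest to ola-miR-92a (r = 0.992), gmo-miR-22a-3p (r = 0.945) and ola-miR-128 (r = 0.902), so 2 of its 3 nearest were medaka entries of other miRNAs. ola-miR-92a had 421, 359 and 379 normalised counts in AA, 537, 1197 and 1189 in IGF1, and 522, 450 and 417 in CTR, with IGF1 replicates 2 and 3 again far above the rest. ssa-miR-26a-4-3p was closest to ssa-miR-29b-3-5p (r = 0.874), dre-miR-457a (r = 0.818) and dre-miR-730 (r = 0.818). gmo-miR-26a-5p, the profile of the abundant form with the highest mean, was closest to dre-miR-153b-5p (r = 0.869), dre-miR-724 (r = 0.774) and dre-miR-130a (r = 0.771). dre-miR-26a-3p, added after its values were seen, was closest to the muscle-specific dre-miR-206-3p (r = 0.954), to ssa-miR-125a-2-3p (r = 0.950) and to the muscle-specific dre-miR-133b-3p (r = 0.949).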

How the data were processed

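The authors trimmed the reads, mapped them with Bowtie2 to miRBase mature miRNAs of 13 teleosts and deposited raw counts per entry. How they treated reads that match several entries was not stated in the sources read. They also deposited normalised counts, a signal obtained by dividing each library's counts by its size factor (0.695 to 1.36). Levels and ratios of group means printed here are from that table. Sums, ratios within a library and tests are from the counts.

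Counts were tested in R 4.3.3 with edgeR 4.0.16 (TMM, quasi-likelihood test, group alone, all 9 libraries, mean of at least 10 counts), with Benjamini-Hochberg adjustment over 1769 entries. The SE of an edgeR log2 fold change was taken as the absolute fold change divided by the square root of the F statistic of this test. The filter left out 0.00134% of the counts. Ratios within a library used a pseudocount of 0.5 on the log2 scale and a two-sided exact permutation test. DESeq2 1.42.0, other factors and filters, distinct profiles, only the groups compared, a replicate block and each library left out in turn were alternatives. Near-identical entries collapsed, distinct profiles with the block, and the arm and letter ratios were added after seeing the data. The fit was tested on simulated data.

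The replicate numbers were taken to pair libraries on the basis of the data, but only the fits with the replicate block used this pairing. The main fit and the exact permutation tests of the ratios did not. A sign-flip test of the ratios within replicate numbers can give no p below 0.25 with 3 pairs. Deviations from group means correlated at 0.287 to 0.566 in the 9 pairs of libraries with the same number and at -0.484 to 0.15 in the 18 others.

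The members, lists and tests were chosen with earlier results of these data known. Named are the leading entry of each miR-26 form, and the 3 profiles most like the called variants and the most abundant profile. A second list of miRNAs is not reported here. Counting error is small for miR-26a-5p and miR-26b, but ssa-miR-26a-4-3p had as few as 26 counts.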

Additional observations from a re-analysis of the deposited data

Results flagged for a closer look

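Of the miR-26 forms, 2 differed between the AA and IGF1 effects by the direct comparison of these groups. ola-miR-26 had a log2 difference of -0.98 between AA and IGF1 (SE 0.20, edgeR adjusted p = 0.0183), with AA at 5571 ± 426 and IGF1 at 11064 ± 3434 normalised counts (SD, n = 3 each). ssa-miR-26a-4-3p had a log2 difference of 1.26 (SE 0.28, edgeR adjusted p = 0.0294), with AA at 106 ± 16.96 and IGF1 at 43.8 ± 14.0 normalised counts (SD, n = 3 each). Both calls were lost with only the groups compared (edgeR adjusted p = 0.0509 each) and in some fits that left out 1 library. For ola-miR-26, IGF1 replicate 1 lay within the CTR range.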

How the results depend on the processing

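The miR-26 profiles called between AA and CTR numbered 0. They numbered 1 (dre-miR-26a-3p) over distinct profiles, over distinct profiles with the replicate block, without composition factors, with upper-quartile factors and by the adjusted p alone, and 0 to 1 when 1 library was left out. Between IGF1 and CTR 1 was called. DESeq2 called 2, and 0 were called with RLE or upper-quartile factors, over distinct profiles, at a mean of at least 50 counts, with near-identical entries collapsed or with only the groups compared (0 to 1 with 1 library left out). Between AA and IGF1 2 were called, 1 without composition factors (ssa-miR-26a-4-3p) and 0 with only the groups compared (0 to 2 with 1 library left out). The replicate block on all entries changed no miR-26 call, with an edgeR adjusted p for ssa-miR-26a-4-3p of 0.00177 for IGF1 against CTR and for ola-miR-26 of 0.00491 for AA against IGF1.

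Leaving out the composition factors moved the median of all profiles by 0.20 for AA against CTR and by 0.23 for AA against IGF1 (log2). It turned the AA against CTR values of dre-miR-26a-5p to 0.067 and dre-miR-26b to 0.056, and the AA against IGF1 values of dre-miR-26a-5p to 0.17 and dre-miR-26a-2-3p to 0.024. Upper-quartile factors gave dre-miR-26a-5p 0.019 for AA against IGF1. The IGF1 against CTR value of ssa-miR-26d-5p, 0.01, became -0.015 over distinct profiles, -0.020 without composition factors, -0.011 over distinct profiles with the block, -0.031 with upper-quartile factors and -0.026 with near-identical entries collapsed. With 1 library left out, the values ran from -0.086 to 0.16 for ssa-miR-26d-5p in IGF1 against CTR, from -0.032 to 0.35 for dre-miR-26a-2-3p and from -0.20 to 0.23 for oni-miR-26d in AA against CTR, and from -0.085 to 0.00096 for dre-miR-26a-5p in AA against IGF1. The log2 ratios ran from -0.021 to 0.38 for dre-miR-26a-2-3p to dre-miR-26a-3p and from -0.041 to 0.22 for ssa-miR-26d-5p to gmo-miR-26a-5p in IGF1 against CTR. In AA against CTR they ran from -0.14 to 0.34 for oni-miR-26d to gmo-miR-26a-5p and from -0.029 to 0.048 for dre-miR-26a-5p to dre-miR-26b. The cause of these changes was not tested. Low counts limit oni-miR-26d and dre-miR-26a-2-3p, whose raw counts were at most 112 and 51.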
